A study of Homo sapiens with 6 samples.

Results

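Collagen VI is built from an α1, an α2 and an α3 chain, and the 3 genes that encode them, COL6A1, COL6A2 and COL6A3, were followed in SCC-9, an established line of human tongue squamous cell carcinoma. They are 3 of the 17862 genes listed for each library, and 2 of them, COL6A1 and COL6A2, were among the 13710 genes with enough counts to be tested. The 3 chains were selected on measured values of the same comparison, so their levels and fold changes are given as a description, with no p-value. RNA was sequenced in 3 libraries of cells with short hairpin plasmids against MTHFD2 (shMTHFD2) and in 3 of cells with a control hairpin (shNC), described as biological replicates. MTHFD2 works in mitochondria, in the folate cycle that supplies one-carbon units. Both groups grew in DMEM/F12 with 10% serum and 400 ng/mL of the glucocorticoid hydrocortisone, and the labels give neither a time after the hairpin was introduced nor a drug for selection. The design text calls the cells knock-out and the treatment label knockdown; knockdown is the word used here. The labels name 1 cell line for both groups, so whether the differences hold in another line was not tested. They do not give the number of hairpin sequences, so an effect of a hairpin cannot be told apart from that of lower MTHFD2.

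Collagen VI is a matrix protein of most connective tissues. An α1, an α2 and an α3 chain fold into a heterotrimer inside the cell, trimers pair into dimers and tetramers, and secreted tetramers join end to end into beaded microfilaments around cells and basement membranes. The α1 and α2 chains are short and similar in domain layout, while α3 is much longer and ends in a domain whose cleaved fragment is called endotrophin. Fibroblasts are the usual main source, and inherited defects of any of the 3 genes cause Bethlem myopathy and Ullrich muscular dystrophy. COL6A5 and COL6A6 encode longer chains that resemble α3.

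COL6A1 and COL6A2 are adjacent among the listed genes of chromosome 21, and COL6A3 lies on chromosome 2. RefSeq promoters, 300 bases from 250 before to 50 after the annotated start, were matched for 2 of the 3 chains, COL6A2 at chr21:46097862-46098161 on the plus strand and COL6A3 at chr2:237414115-237414414 on the minus strand, in GRCh38.p14. They are shown as the promoters that could be matched, and a relation of base composition to level was not tested. Capitals mark GC boxes (GGGCGG, or CCGCCC on the other strand), the element read by Sp1 and KLF factors, and the TATA box (TATAAA).
COL6A2: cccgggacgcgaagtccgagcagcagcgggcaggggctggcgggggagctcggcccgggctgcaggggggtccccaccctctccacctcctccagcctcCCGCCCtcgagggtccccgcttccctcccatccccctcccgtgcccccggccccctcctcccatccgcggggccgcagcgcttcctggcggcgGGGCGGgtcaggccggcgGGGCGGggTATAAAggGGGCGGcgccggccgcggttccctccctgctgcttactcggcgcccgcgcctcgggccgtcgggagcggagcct
COL6A3: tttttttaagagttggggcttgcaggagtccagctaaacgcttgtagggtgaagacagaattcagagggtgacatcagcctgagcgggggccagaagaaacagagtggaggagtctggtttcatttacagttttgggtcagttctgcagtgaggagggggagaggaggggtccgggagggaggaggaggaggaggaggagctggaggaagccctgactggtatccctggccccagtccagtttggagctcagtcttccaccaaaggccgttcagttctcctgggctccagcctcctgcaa
The COL6A2 stretch is 79.3% G and C, above 96.7% of the 35116 RefSeq promoters of this length, with 36 CpG dinucleotides. The COL6A3 stretch is 56.3% G and C, with 4 CpG dinucleotides, against medians over all promoters of 58.7% and 14. COL6A2 holds 4 GC boxes, which begin 151, 58, 40 and 24 bases before the start, and 1 TATA box, which begins 32 bases before it. COL6A3 holds neither, while 45.0% of all promoters hold a GC box and 11.5% a TATAAA on either strand. No match was found in either stretch, on both strands, for the forkhead word TGTTTAC (3.42% of all promoters), the E box CACGTG (7.26%), the AP-1 word TGANTCA (7.71%) or ACGTG, the core of the hypoxia response element, which is also contained in the E box (21.4%). The SMAD word CAGAC (45.3% of all promoters) occurs once in COL6A3, beginning 138 bases before the start. A match describes letters in these windows and is not a site of binding.

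Levels are given in TPM, a unit scaled to library size and gene length, so that genes can be compared. Library totals were 18676999 to 19838989 estimated counts, so 3 counts, the limit that a count of 0 allows, came to 0.151 to 0.161 CPM (counts scaled to library size). MTHFD2 was at 38.52, 29.05 and 58.5 TPM in shMTHFD2, against 160.42, 168.02 and 149.6 TPM in shNC. Its mean was 42.0 ± 15.0 TPM in shMTHFD2 and 159 ± 9.26 TPM in shNC (SD, n = 3 each), so that shMTHFD2 kept 26.4% of the shNC level (log2 fold change -1.95, SE 0.21, edgeR adjusted p = 0.00924); the call was lost without shMTHFD2 replicate 1 or any 1 of the shNC libraries. The knockdown was deepest in shMTHFD2 replicate 2 and shallowest in replicate 3. Replicate 2 also stood apart from the other 5 libraries on the first principal component, which held 63.0% of the variance, and the values of the chains, and list values that rest on it, are given below with and without it. Keratins and other markers of squamous epithelium summed to 8662 to 10756 TPM in shMTHFD2 and 9332 to 10294 TPM in shNC, as the cell type label states. In bulk RNA, fewer cells that express a gene and less RNA per cell cannot be told apart.

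COL6A2, which encodes the α2 chain, was the chain with the larger difference between the groups. Its level was 73.31, 86.67 and 100.68 TPM in shMTHFD2, against 12.89, 10.79 and 13.50 TPM in shNC. All shMTHFD2 libraries were high and all shNC libraries low, and the lowest shMTHFD2 library was 5.43-fold above the highest shNC library. The mean was 86.9 ± 13.7 TPM in shMTHFD2 and 12.4 ± 1.42 TPM in shNC (SD, n = 3 each), a ratio of 7.01, and the fitted log2 fold change was 2.75 (SE 0.15). Behind these levels stood 2314, 2673 and 3060 counts in shMTHFD2 and 398, 343 and 440 counts in shNC. By level, COL6A2 ranked between 1668 and 2158 of 17862 genes in the shMTHFD2 libraries and between 7644 and 8374 in the shNC libraries. Only 15 tested genes had a higher fitted fold change, and among the 8712 genes with a mean of at least 10 TPM it ranked 2. Without shMTHFD2 replicate 2 the log2 fold change was 2.74.

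COL6A1, which encodes the α1 chain, differed in the same direction by less. It was at 44.67, 48.64 and 54.34 TPM in shMTHFD2, against 25.91, 23.57 and 24.95 TPM in shNC. The groups did not overlap, which held for COL6A1 and COL6A2 as it did, in the direction of higher shMTHFD2, for 22.5% of all tested genes. The mean was 49.2 ± 4.86 TPM in shMTHFD2 and 24.8 ± 1.18 TPM in shNC (SD, n = 3 each), a ratio of 1.98, with a fitted log2 fold change of 0.93 (SE 0.10). Counts were 1784, 1892 and 2102 in shMTHFD2 and 1014, 946 and 1019 in shNC. In fold change COL6A1 ranked 769 of the 13710 genes, and 116 of the 8712 with at least 10 TPM. Without shMTHFD2 replicate 2 the value was 0.94.

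COL6A3, which encodes the long α3 chain, was near the limit of detection in every library. It was listed at 0.26, 0.12 and 0.09 TPM in shMTHFD2, against 0.07, 0.15 and 0.05 TPM in shNC. The groups overlapped: shMTHFD2 replicate 1 was the highest library, and shNC replicate 2 lay above shMTHFD2 replicates 2 and 3. The counts were 22, 10 and 7 in shMTHFD2 and 6, 10 and 4 in shNC, above the limit of 3 counts but too few to pass the filter on low counts. Summed over libraries they were 39 of 57694871 counts in shMTHFD2 (exact 95% Poisson interval 27.7 to 53.3) and 20 of 58615105 in shNC (12.2 to 30.9), a ratio of rates of 1.98 with an interval of 1.13 to 3.59 that covers counting error only. A fit without the filter gave a log2 fold change of 0.93 (SE 0.57), 1.08 without shMTHFD2 replicate 2 and 0.32 without shMTHFD2 replicate 1. A difference of COL6A3 beyond the spread between libraries was therefore not detected with 3 libraries in each group.

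**Figure D1:**
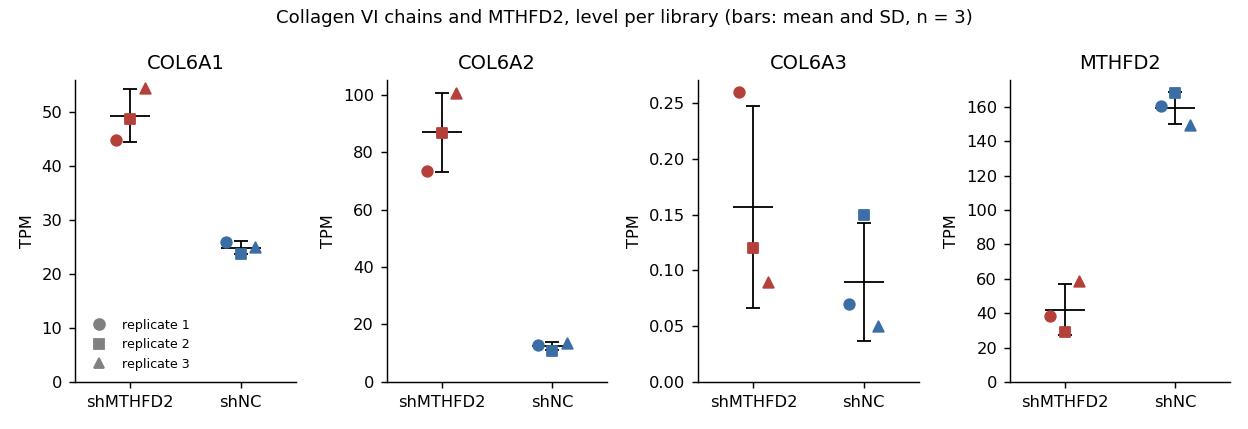
Level in TPM (y axis, from 0) of COL6A1, COL6A2, COL6A3 and MTHFD2 in each library of shMTHFD2 (red) and shNC (blue), with the mean and SD of 3 libraries as bars and the replicate number as symbol. COL6A2 lies at 73.31 to 100.68 TPM in shMTHFD2 against 10.79 to 13.50 TPM in shNC, while the COL6A3 groups overlap between 0.05 and 0.26 TPM.

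Both tested chains, 2 of 2, were past an edgeR adjusted p of 0.05 with higher values in shMTHFD2, beside 5.43% of all tested genes in either direction, 2.97% higher and 2.47% lower. COL6A1 was not past that threshold without any 1 of the shNC libraries or with the replicate number as a block. The chains were chosen from this contrast, so nothing is read from these calls.

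The balance between the α1 and α2 messages differed between the groups. COL6A2 TPM divided by COL6A1 TPM was 1.64, 1.78 and 1.85 in shMTHFD2, against 0.497, 0.458 and 0.541 in shNC. COL6A2 was above COL6A1 in each shMTHFD2 library and below it in each shNC library. The mean ratio was 1.76 ± 0.108 in shMTHFD2 and 0.499 ± 0.0417 in shNC (SD, n = 3 each), 3.53-fold apart. The log2 difference was 1.82, and 1.81 without shMTHFD2 replicate 2. Raw counts, not scaled for length, gave mean ratios of 1.39 in shMTHFD2 and 0.396 in shNC, since the length scaling between the genes was 1.25 to 1.27 in all 6 libraries.

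Summed over the 3 chains, collagen VI messages came to 118.24, 135.43 and 155.11 TPM in shMTHFD2, against 38.87, 34.51 and 38.5 TPM in shNC. The mean sum was 136 ± 18.4 TPM in shMTHFD2 and 37.3 ± 2.42 TPM in shNC, a ratio of 3.65. COL6A2 made up 62.0, 64.0 and 64.9% of the sum in shMTHFD2 and 33.2, 31.3 and 35.1% in shNC. The α3 message was a small fraction of the α1 message in both groups: 0.582, 0.247 and 0.166% in shMTHFD2, and 0.270, 0.636 and 0.200% in shNC. These shares overlapped between the groups. Within each group the order of the chains was the same in all libraries, COL6A2, COL6A1, COL6A3 in shMTHFD2 and COL6A1, COL6A2, COL6A3 in shNC, and no 2 chains overlapped in level within a group.

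**Figure D2:**
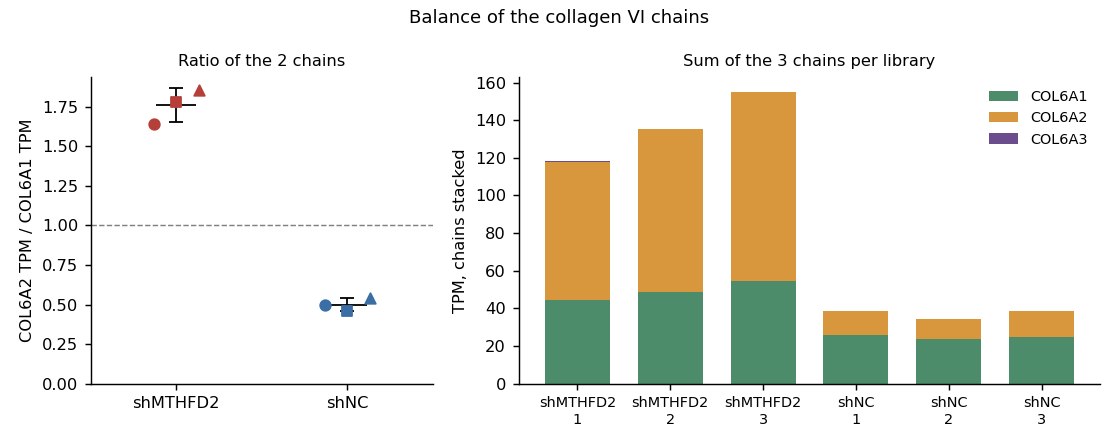
Left, COL6A2 TPM divided by COL6A1 TPM in each library (points, symbols as replicates) with the mean and SD of 3 libraries, and a dashed line at equal levels; right, TPM of the 3 chains stacked for each library. The ratio is 1.64 to 1.85 in shMTHFD2 and 0.458 to 0.541 in shNC, and COL6A3 is too low to be seen in most stacks.

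Within shMTHFD2, COL6A1 and COL6A2 were both lowest in replicate 1 and highest in replicate 3, and within shNC both were lowest in replicate 2. The spread was 9.88% of the mean for COL6A1 and 15.8% for COL6A2 in shMTHFD2, against 4.74% and 11.5% in shNC. Replicate 3 of shMTHFD2 had the highest MTHFD2 level and also the highest levels of both chains. Replicate 2, with the lowest MTHFD2, was intermediate for both. A relation of the chains to the depth of the knockdown was not tested, since 3 libraries are too few for it.

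Among further α3-like chains, COL6A6 was listed at 0.24, 0.21 and 0.32 TPM in shMTHFD2, against 0.34, 0.39 and 0.37 TPM in shNC. All shMTHFD2 libraries were below all shNC libraries. The share of tested genes that separate in that direction is not given here, so nothing is read from this. These levels rest on 12.73, 10.81 and 16.46 estimated counts in shMTHFD2, against 17.23, 20.53 and 19.95 in shNC. The ratio of summed rates was 0.70. Its 95% interval, 0.456 to 1.07, includes equal rates and covers counting error only. On the log2 scale COL6A6 was fitted at -0.55 (SE 0.29) and was not called (edgeR adjusted p = 0.248). Estimated counts of COL6A6 were not whole numbers in any library, whereas those of COL6A1, COL6A2 and COL6A3 were whole in all 6. In shNC, COL6A6 lay above COL6A3 in every library, and in shMTHFD2 the ranges of the chains overlapped. COL6A5 was not analysed here.

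Against the other collagens, COL6A2 ranked higher in level in shMTHFD2 than in shNC. Of 42 collagen chains listed, 19 reached a mean of 1 TPM in shMTHFD2 and 18 in shNC. COL6A2 ranked 3 in shMTHFD2 and 11 in shNC, and made up 11.0% of the summed collagen TPM in shMTHFD2 and 1.99% in shNC. COL6A1 ranked 4 in both groups. COL17A1, the hemidesmosomal collagen of epithelial cells, was the most abundant chain, at 352 ± 69.5 TPM in shMTHFD2 and 339 ± 7.36 TPM in shNC (SD, n = 3 each; log2 fold change -0.01, edgeR adjusted p = 0.979). COL7A1, the anchoring fibril collagen, was second in rank, at 89.5 ± 13.1 TPM in shMTHFD2 and 61.9 ± 2.64 TPM in shNC (edgeR adjusted p = 0.0766). It was past the threshold without shMTHFD2 replicate 2 (log2 fold change 0.37), without shMTHFD2 replicate 3 (0.62) and by DESeq2.

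The 22 tested chains outside the 3 genes had log2 fold changes of -0.75 to 1.38, with a median of 0.30, against a median of 0.01 over all tested genes. By edgeR adjusted over all tested genes, 4 of the 22 rose and 2 fell, beside 2.97% of all tested genes that rose and 2.47% that fell. DESeq2 called 9 higher and 3 lower, limma-voom 1 higher and 2 lower, and limma-trend on log2(FPKM + 1) 1 higher and 1 lower. COL13A1, a transmembrane collagen, was at 2.27, 3.11 and 1.89 TPM in shMTHFD2, against 0.86, 1.02 and 0.76 TPM in shNC (log2 fold change 1.38, SE 0.27, adjusted p = 0.0359). COL18A1, the basement membrane collagen that carries endostatin, was at 5.9, 5.8 and 3.27 TPM in shMTHFD2 and 1.92, 1.81 and 2.12 TPM in shNC (log2 fold change 1.30, SE 0.26, adjusted p = 0.0372). The other rises were COL8A2, a network-forming short chain (log2 fold change 1.30, SE 0.29), and the fibrillar chain COL27A1 (0.57, SE 0.12). COL12A1, a fibril-associated collagen, fell to 10.27, 8.69 and 12.1 TPM in shMTHFD2, against 17.02, 17.59 and 14.56 TPM in shNC (log2 fold change -0.70, SE 0.14, adjusted p = 0.0343). COL8A1, the partner chain of COL8A2, fell by 0.75 on the log2 scale (SE 0.16, adjusted p = 0.0443). None of these 6 calls held without shMTHFD2 replicate 1 or without any 1 of the shNC libraries. COL18A1, COL8A2 and COL27A1 were also not called by limma-voom, nor COL8A1 with upper quartile or total count scaling, a mean of at least 5 CPM or limma-trend. None of the 22 fold changes was as large as that of COL6A2. COL1A1, the α1 chain of type I collagen, was at 11.43, 22.46 and 9.6 TPM in shMTHFD2 and 6.4, 4.23 and 6.51 TPM in shNC (edgeR adjusted p = 0.0654). Its highest library was shMTHFD2 replicate 2, and without it the log2 fold change was 0.85 in place of 1.31 and past the threshold. COL1A1, named for its role, was also past it without shMTHFD2 replicate 3 (1.57) and by DESeq2.

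**Figure D3:**
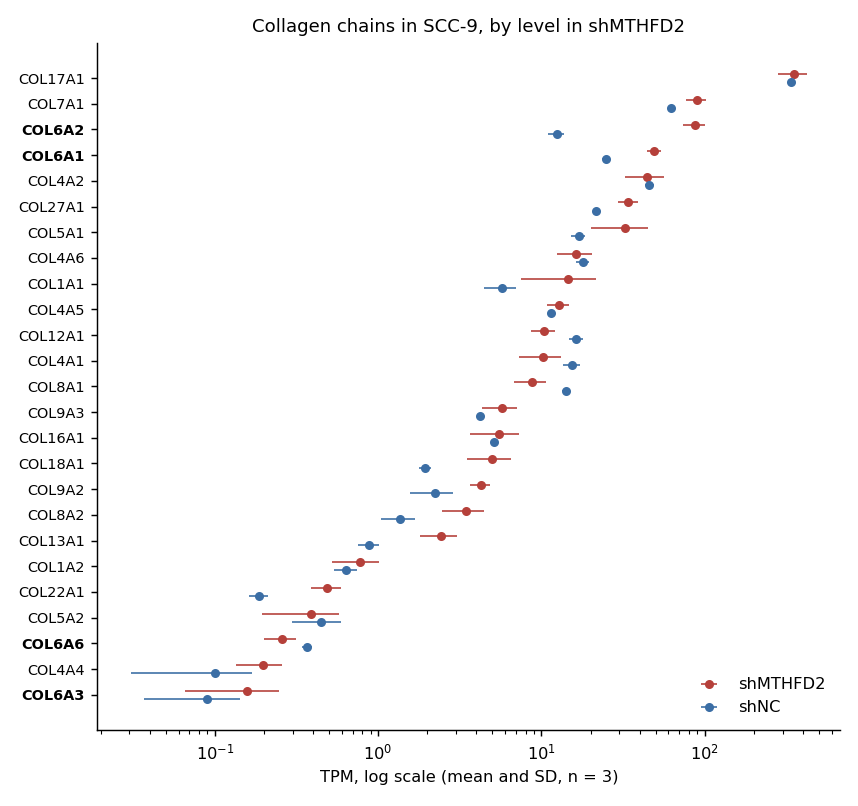
Mean TPM on a log axis, with SD over 3 libraries, of the 24 tested collagen chains and COL6A3 in shMTHFD2 (red) and shNC (blue), ordered by the shMTHFD2 level; collagen VI genes are in bold. COL6A2 stands below COL17A1 and COL7A1 at 86.9 TPM in shMTHFD2 against 12.4 TPM in shNC, and COL6A3 is at the bottom with overlapping bars.

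Further genes were taken from 9 lists, COL6A6 included. The lists cover genes that act on or with collagen VI, other collagen chains, the TGF-beta pathway and mesenchymal transition. Counted once, 113 of the 137 listed genes were tested, of which 7 rose and 3 fell by edgeR, or 8.85%, beside 5.43% of all tested genes. Of these calls, 4 of the rises and 2 of the falls came from the list of other collagen chains, with 19 tested genes. The median log2 fold change over the 113 was 0.15, against 0.01 over all tested genes. Without shMTHFD2 replicate 2 the count of called genes was 20, without replicate 1 it was 2, MMP9 and P4HA1, without replicate 3 it was 42, and without any 1 of the shNC libraries it was 0. In the same omissions 14.2%, 0.194% and 26.3% of all tested genes were called, and 0.00716 to 0.0358% without a shNC library, so the list counts moved with the number of calls overall.

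Enzymes and chaperones that modify and fold collagen chains in the endoplasmic reticulum had 18 of 20 members tested. By edgeR 1 rose and 1 fell, with a median of 0.21. At an unadjusted edgeR p under 0.05 there were 5 higher and 1 lower. DESeq2 called 3 higher and 1 lower, and limma-voom 1 higher and 1 lower. P4HA1, a catalytic subunit of collagen prolyl 4-hydroxylase, was at 55.36, 67.91 and 72.84 TPM in shMTHFD2, against 32.64, 31.49 and 33.53 TPM in shNC (log2 fold change 0.95, SE 0.12, edgeR adjusted p = 0.0137). SERPINH1, the collagen chaperone HSP47, fell to 61.24, 70.18 and 85.61 TPM in shMTHFD2, against 115.51, 120.36 and 115.18 TPM in shNC (log2 fold change -0.75, SE 0.12, edgeR adjusted p = 0.0233). The directions of the 2 genes were opposite. The groups did not overlap for P4HA1, as for 22.5% of all tested genes in the direction of higher shMTHFD2. They did not overlap for SERPINH1 either, but the share of all tested genes in its direction is not given here. P4HB, the common subunit of prolyl 4-hydroxylase, was the most abundant member. It averaged 1510 ± 301 TPM in shMTHFD2 and 1069 ± 19.2 TPM in shNC (SD, n = 3 each, log2 fold change 0.45, edgeR adjusted p = 0.116). The log2 fold change of P4HB was 0.30 without shMTHFD2 replicate 2, and P4HB was past the threshold by DESeq2 only.

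The secretion list, coat proteins and cargo receptors that carry procollagen out of the endoplasmic reticulum, had 0 of 12 members past the threshold by edgeR and a median of 0.39, which was 0.06 without shMTHFD2 replicate 2. At an unadjusted p under 0.05 there were 3, all higher in shMTHFD2, and DESeq2 called 1 and limma-voom 0. SEC13, a coat protein and the most abundant member, was at 201.41, 374.27 and 178.78 TPM in shMTHFD2, against 178.68, 176.56 and 186.61 TPM in shNC (edgeR adjusted p = 0.309). Only shMTHFD2 replicate 2 stood far above the rest, and without it the log2 fold change was 0.04 in place of 0.46.

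Among 8 proteases reported for collagen VI or its α3 tail, 1 rose and none fell by edgeR, and the median was 0.31. MMP9, a gelatinase, was at 17.28, 28.72 and 18.64 TPM in shMTHFD2, against 4.36, 4.53 and 4.36 TPM in shNC (log2 fold change 2.24, SE 0.23, edgeR adjusted p = 0.00776). The groups were far apart, and replicate 2 was the highest; without it the log2 fold change was 1.97. CTSB, a lysosomal cysteine protease and the most abundant member, averaged 407 ± 52.3 TPM in shMTHFD2 and 340 ± 20.7 TPM in shNC (SD, n = 3 each; edgeR adjusted p = 0.303). BMP1, which has been reported to cleave the α3 tail and is named for that role, was at 47.6 ± 1.68 TPM in shMTHFD2 and 36.9 ± 1.99 TPM in shNC (SD, n = 3 each, edgeR adjusted p = 0.0647). BMP1 was past the threshold without shMTHFD2 replicate 2, without shMTHFD2 replicate 3 and by DESeq2.

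Receptors of collagen VI had 0 of 12 members past the threshold by edgeR, with a median of 0.02, or 0.18 without shMTHFD2 replicate 2. At an unadjusted p under 0.05 there was 1, CD44, and DESeq2 and limma-voom called 0. Without shMTHFD2 replicate 3, CD44 was past the threshold. CD44, a hyaluronan receptor and the most abundant member, averaged 1343 ± 160 TPM in shMTHFD2 and 981 ± 13.5 TPM in shNC (SD, n = 3 each; log2 fold change 0.29, edgeR adjusted p = 0.134). ITGB1, the β1 integrin chain shared by the collagen-binding integrins, was at 255 ± 37.5 TPM in shMTHFD2 and 215 ± 9.01 TPM in shNC (edgeR adjusted p = 0.285). CSPG4, the proteoglycan NG2, averaged 1.89 TPM in shMTHFD2 and 1.44 TPM in shNC (edgeR adjusted p = 0.329). ANTXR1, the receptor reported to bind the α3 fragment, averaged 40.5 TPM in shMTHFD2 and 43.5 TPM in shNC. These 3 genes are named for their roles.

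Matrix partners of collagen VI had 0 of the 14 tested members past the threshold by edgeR and a median of 0.16; an unadjusted p under 0.05 was found for 3 higher and 1 lower, and DESeq2 called 3 and limma-voom 0. FN1, fibronectin, was the most abundant, at 8661 ± 1491 TPM in shMTHFD2 and 6762 ± 373 TPM in shNC (SD, n = 3 each; edgeR adjusted p = 0.207). Without shMTHFD2 replicate 3, FN1 was past the threshold. The small proteoglycans BGN, DCN, LUM and FMOD, which link collagen VI to other fibres, averaged under 1 TPM over the 6 libraries.

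Of 19 tested ligands, receptors, SMADs and associated genes of the TGF-beta pathway, which is known to raise matrix gene expression, 1 rose and 0 fell by edgeR, with a median of -0.03, or 0.05 without shMTHFD2 replicate 2. Without adjustment, 3 had p under 0.05 with higher and 4 with lower values; DESeq2 called 1 higher and 2 lower, and limma-voom 1 higher and 0 lower. LTBP1, which holds latent TGF-beta in the matrix, was at 2.73, 2.88 and 3.66 TPM in shMTHFD2, against 1.69, 1.38 and 1.67 TPM in shNC (log2 fold change 0.98, SE 0.19, edgeR adjusted p = 0.0358). Of 10 mesenchymal transition genes, 0 passed the threshold by edgeR, with a median of 0.06; an unadjusted p under 0.05 was found for 3 higher and 1 lower, and DESeq2 called 2 and limma-voom 0. VIM, vimentin, averaged 230 ± 65.1 TPM in shMTHFD2 and 283 ± 10.3 TPM in shNC (edgeR adjusted p = 0.207). It was past the threshold without shMTHFD2 replicate 3.

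**Figure D4:**
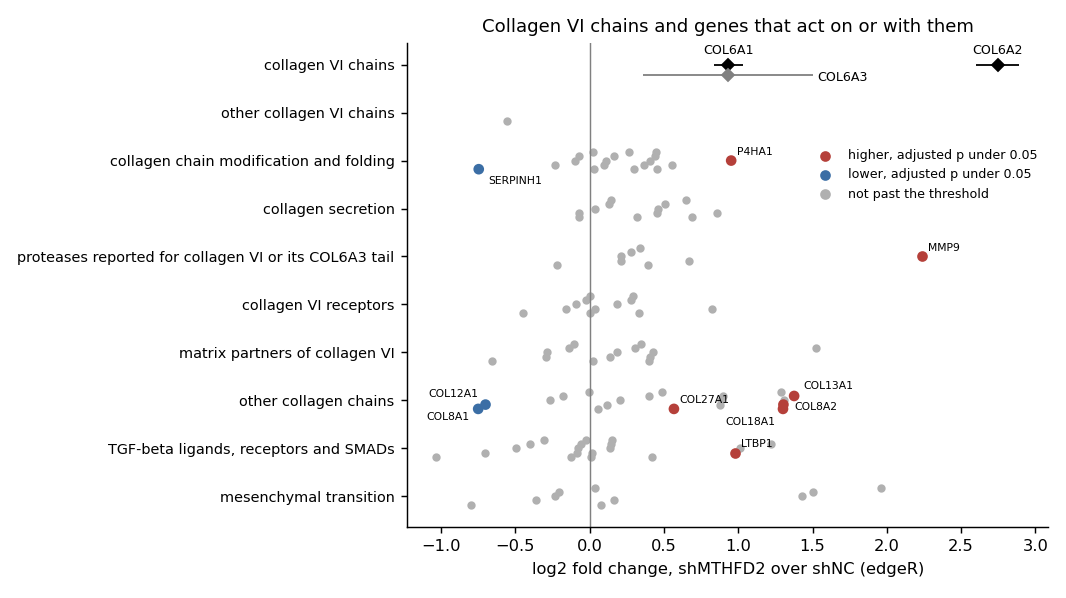
Fitted log2 fold change, shMTHFD2 over shNC (x axis), of each tested gene of the lists (1 row each; vertical scatter only separates points), with red for genes that rose, blue for genes that fell and grey for the rest; diamonds are the collagen VI chains with their SE. COL6A2 lies at 2.75 and MMP9, the nearest called gene of any list, at 2.24.

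Most fibroblast markers were at low levels. Of 10 fibroblast markers, 8 averaged under 1 TPM over the 6 libraries, PDGFRA, PDGFRB, COL1A2, COL3A1, LUM and DCN among them. The list summed to 59.5 to 69.9 TPM in shMTHFD2 and 44 to 47.6 TPM in shNC, mostly FAP, at 48.1 ± 7.55 TPM in shMTHFD2 and 37.4 ± 1.40 TPM in shNC (SD, n = 3 each; edgeR adjusted p = 0.168; past the threshold without shMTHFD2 replicate 2), and COL1A1. None of its 5 tested markers passed the threshold by edgeR; 2 were higher at an unadjusted p under 0.05, and DESeq2 called 1 and limma-voom 0. Among 6 smooth muscle and pericyte markers, summed at 58.6 to 77.8 TPM in shMTHFD2 and 57.3 to 62.0 TPM in shNC, NOTCH3 rose (log2 fold change 1.68, SE 0.25, edgeR adjusted p = 0.0211, not called without shMTHFD2 replicate 1 or any 1 of the shNC libraries), while ACTG2, the most abundant, averaged 48.2 ± 6.92 TPM in shMTHFD2 and 47.8 ± 2.83 TPM in shNC. MYH11 averaged 11.2 TPM in shMTHFD2 and 8.54 TPM in shNC, and DES, RGS5 and CNN1 averaged under 1 TPM over the 6 libraries. The 6 endothelial markers, all under 1 TPM, summed to 0.42 to 0.57 TPM in shMTHFD2 and 0.64 to 0.84 TPM in shNC. Adipocyte markers summed to 4.16 to 4.83 TPM in shMTHFD2 and 3.74 to 5 TPM in shNC. Macrophage markers summed to 146 to 209 TPM in shMTHFD2 and 144 to 160 TPM in shNC, mostly the lysosomal CD68, with PTPRC and AIF1 under 1 TPM. The part of the fibroblast and pericyte markers in the collagen VI levels was not tested.

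The genes nearest to each abundant chain in profile were found by the root mean square difference in log2 CPM from the shNC mean over the 6 libraries, among 12403 genes of at least 1 TPM. For COL6A1 the nearest was P4HA1, at 0.0587, followed by GPC2, a glypican, HLA-F, a class I histocompatibility gene, MLLT3, a subunit of an elongation complex, and LONRF3, a RING finger gene, at 0.0803. For COL6A2 the nearest was PDK4, a pyruvate dehydrogenase kinase, at 0.142, with mean levels of 5.45 TPM in shMTHFD2 and 0.753 TPM in shNC. It was followed by PPP2R2C, a phosphatase 2A subunit, NOD2, a sensor of bacterial peptidoglycan, ENO2, the neuronal enolase, and CD74, the class II invariant chain, at 0.464. COL6A2 ranked 12138 in nearness to COL6A1, and COL6A1 ranked 338 in nearness to COL6A2. These are likenesses of the difference from each gene's shNC mean, not of level, so nearness rests mainly on fold changes of like size. The ranks of the 2 chains for each other follow mainly from their unlike fold changes. The 6 libraries share the contrast by which the chains were chosen.

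The genes beside the COL6A1 and COL6A2 pair in RefSeq order went in both directions. Of 19 neighbours, up to 10 on either side, 17 were tested, 1 rose and 1 fell, beside 2.97% of all tested genes that rose and 2.47% that fell. The log2 fold changes of the 17 were -0.59 to 1.30, with a median of -0.13. Nothing is read from so few calls, and a change shared by the region was not tested. The rise was COL18A1, given above, and the fall was LSS, lanosterol synthase (log2 fold change -0.58, SE 0.11, edgeR adjusted p = 0.0358). Directly beside the pair, PCBP3, an RNA-binding protein gene, averaged 0.477 TPM in shMTHFD2 and 0.187 TPM in shNC, and FTCD, an enzyme of histidine and folate metabolism, 0.480 TPM in shMTHFD2 and 0.403 TPM in shNC (edgeR adjusted p = 0.833). Around COL6A3, 14 of 20 neighbours were tested, with 0 that rose, 1 that fell and a median of -0.06, beside the same shares of all tested genes. The fall was SCLY, selenocysteine lyase (log2 fold change -1.01, SE 0.13, edgeR adjusted p = 0.0141). LSS and SCLY were not called without shMTHFD2 replicate 1 or without any 1 of the shNC libraries, and LSS also not with upper quartile scaling or limma-trend. The genes adjacent to COL6A3 were COPS8, a COP9 signalosome subunit, at 42.7 TPM in shMTHFD2 and 43.4 TPM in shNC, and MLPH, a melanosome transport gene, under 0.1 TPM in both groups. Strand handling is not given in the sources used here, so reads of genes antisense to COL6A1 or COL6A2 cannot be told apart from theirs.

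The size of the COL6A2 difference depended little on how the counts were treated. Over 16 alternatives in scaling, filter, model and library left out, its log2 fold change was 2.61 to 2.84, and that of COL6A1 was 0.90 to 0.99. COL6A3 ranged over 0.32 to 1.33 in the 12 alternatives that gave a value.

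**Figure D5:**
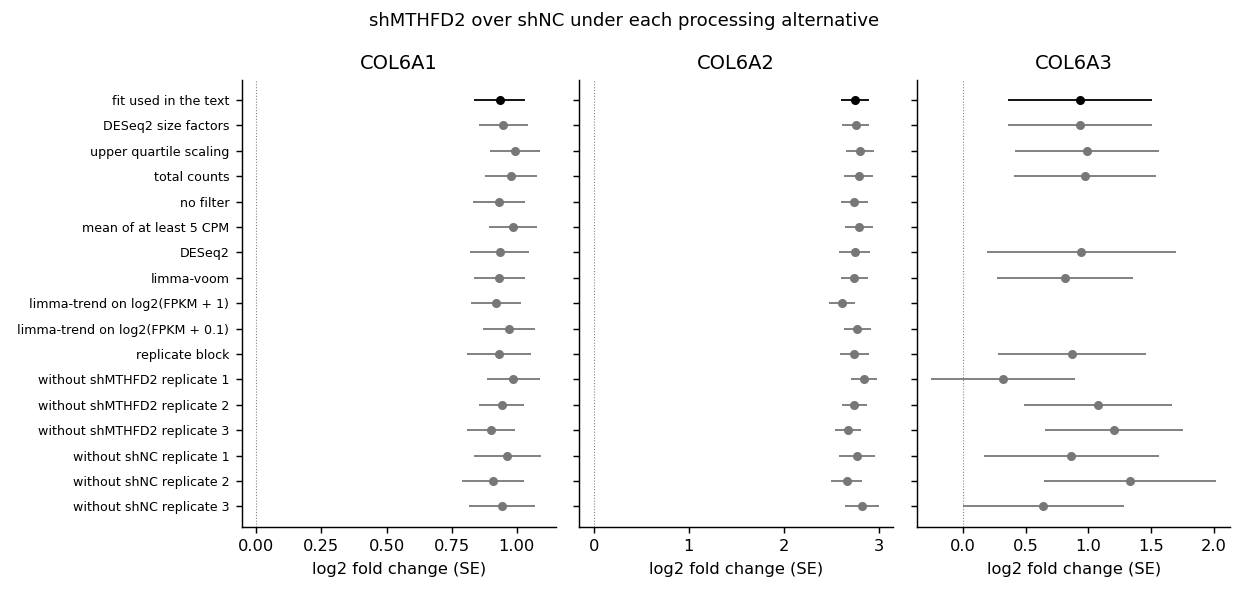
Log2 fold change, shMTHFD2 over shNC, with its SE, of COL6A1, COL6A2 and COL6A3 (x axis, a scale for each panel, dotted line at 0) in the fit used in the text and under each alternative (rows). COL6A2 stays between 2.61 and 2.84, while COL6A3 has no value where a filter on level removed it and drops to 0.32 without shMTHFD2 replicate 1.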

How the data were processed

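RNA of 3 shMTHFD2 and 3 shNC libraries was analysed, grouped by the sample labels. Per the file headers, the authors deposited for each library FPKM values, TPM values, read counts and normalized read counts of 17862 genes. The deposited read counts are estimated counts, 53.0 to 56.0% of them whole within 0.001; the authors' normalized read counts, a signal, equal the counts rounded up over 1 factor per library, and served only as a check. The FPKM values deposited by the authors were used in alternatives, and the deposited TPM values for levels. The submitters' processing notes list mm10, a mouse build, whereas the organism label is human; a human RefSeq table held 17793 of the identifiers. The aligner, counter, annotation and strand setting are, in the sources used here, not given, and shared reads of paralogs or overlapping genes are uncertain.

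Counts were rounded, filtered by filterByExpr, scaled by TMM and compared by edgeR's quasi-likelihood F test (edgeR 4.0.16, R 4.3.3) with no covariate, and p-values adjusted by Benjamini-Hochberg over 13710 genes and called under 0.05. Counts varied by 16.7% between replicates (edgeR's biological coefficient of variation). Each SE is the absolute log2 fold change over the square root of F. COL6A3 did not pass the filter, and its fold change comes from the same fit without it. P-values measure only the spread between libraries; intervals and count limits cover counting error only. The test was also run on counts simulated from the fitted means and a common dispersion. It recovered 34 of 46 genes changed by -1 on the log2 scale and 42 of 50 changed by 1. All 48 changed by -2 and all 50 changed by 2 were recovered, with 4 false calls among 13609 genes.

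The members and the gene lists were chosen with earlier results of these data known. Named genes were the members, MTHFD2, COL6A5 and COL6A6, up to 4 called genes and the most abundant gene of each list, the 5 nearest profiles, and adjacent and called neighbours; others are named for their role. A single-gene result that this rule calls for is not reported here. Nearest profiles are given for COL6A1 and COL6A2 only, since COL6A3 has too few counts.

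Alternatives were DESeq2 size factors, upper quartile or total count scaling, testing without the filter or only genes averaging 5 CPM or more, the tools DESeq2 1.42.0 and limma-voom, and limma-trend (limma 3.58.1) on log2(FPKM + 1) and log2(FPKM + 0.1) for genes of at least 1 FPKM in 3 libraries, the replicate number as a block, and each library left out. Tables were made in Python 3.11.15 (pandas 2.3.3, with NumPy 2.4.6 and SciPy 1.17.1), figures in matplotlib 3.10.9.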

Additional observations from a re-analysis of the deposited data

How the results depend on the processing

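The log2 fold changes of COL6A1 and COL6A2 and the log2 difference of their ratio kept their direction in all alternatives run, the ratio at 1.76 to 1.88 with a library left out, 1.82 from FPKM and 1.81 from counts. COL6A3 had a value in 12 alternatives; a mean of at least 5 CPM and the FPKM filters left none. The log2 COL6A3 to COL6A1 ratio, -0.18, ranged from -0.69 to 0.31 with a library left out, with the opposite sign without shMTHFD2 replicate 3 (0.22) and without shNC replicate 2 (0.31); it rests on 4 to 22 counts.

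The count of all called genes, 745, was 1983 with DESeq2 and 1 to 3651 with a library left out, 27, 1968 and 3651 without shMTHFD2 replicates 1, 2 and 3, and 1, 1 and 5 without shNC replicates 1, 2 and 3. The 10 called list genes were 26 with DESeq2, 5 and 6 with limma-trend on log2(FPKM + 1) and log2(FPKM + 0.1), and 0 to 42 with a library left out. The cause was not tested. Libraries of the same replicate number had correlations of 0.00074, -0.24 and -0.19 in their deviations from the group means. With 3 libraries in each group these values cannot decide whether the libraries are paired. With the replicate block 16 genes were called in all and 1 in the lists. Among the 10 called list genes, MMP9 lost its call only without each shNC library, and the other 9 also with the replicate block, as did LSS, SCLY and NOTCH3. Genes near 0 that were not called changed sign: the log2 fold change of COL17A1 was 0.0074 with DESeq2 size factors, 0.054 with upper quartile scaling, 0.039 with total counts, 0.042 with a mean of at least 5 CPM, 0.024 with both limma-trend settings and -0.11 to 0.13 with a library left out. FTCD was at -0.19 to 0.37 with a library left out.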
